A study of Mus musculus with 3 samples.

Results

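MHC class I molecules show peptides from inside a cell to CD8+ T cells. The 10 genes described here, of the 27998 genes counted, encode the parts of that pathway: the heavy chains *H2-K1* and *H2-D1*, their light chain *B2m* (beta-2 microglobulin), the peptide transporter subunits *Tap1* and *Tap2*, the bridging protein tapasin (*Tapbp*), the immunoproteasome subunits *Psmb8*, *Psmb9* and *Psmb10*, and *Nlrc5*, the transactivator of class I genes. They were chosen by name for their place in the pathway, with earlier results of these data known. All 10 had a row in each matrix. The cells were CD133+ bone marrow cells of C57BL/6 mice, sorted by flow cytometry and pooled from 3 mice for each of 3 single-cell libraries, with no treatment or genetic change given in the labels. The libraries are called young (labelled 3 months), control (also labelled 3 months) and old (labelled 27 months). The design text of the series gives 18.5 months for old mice and calls the cells intestinal, while every sample label gives bone marrow. Each group is therefore 1 library, and age, mice, sort and library cannot be told apart. No test between libraries was possible. Intervals are 95% intervals that cover counting error only, and differences are read against a limit of size of 1.5 times.

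The young, control and old matrices held 8362, 10869 and 10597 cells with 81434722, 108985799 and 138030352 unique molecular identifiers (UMIs, 1 per captured mRNA molecule). After removal of cells with extreme UMI counts or over 20% mitochondrial UMIs, 7372, 9768 and 9681 cells with 74685364, 95953685 and 119588365 UMIs remained. Between 120 and 161 cell barcodes were shared by 2 libraries, at most 1.52% of a library. The labelled cell type is endothelial-like, but 7 endothelial markers together reached 7.79 to 11.3 UMIs per 1000000 UMIs (CPM), against 113912 to 132042 CPM for 6 markers of neutrophil precursors. Groups of other blood cells held 788 cells (10.7%) in the young library, 101 (1.03%) in the control library and 105 (1.08%) in the old library. The young library also stood apart by interferon-stimulated genes. The 20 genes of a type I interferon list summed to 1658 CPM in the young, 79.8 CPM in the control and 79.6 CPM in the old library, and to 1252, 74.3 and 77.3 CPM without other blood cells. The 5 markers of maturing neutrophils summed to 1039 CPM in the young, 609 CPM in the control and 2113 CPM in the old library. All library comparisons below carry these differences.

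Class I molecules are loaded in the endoplasmic reticulum. The proteasome cuts proteins into peptides, TAP1 and TAP2 pump the peptides across the membrane, and tapasin holds an empty class I molecule at the pump. Interferons replace the catalytic subunits PSMB5, PSMB6 and PSMB7 of the proteasome by PSMB8, PSMB9 and PSMB10, and raise the level of most other genes of the pathway. NLRC5 does not bind DNA itself but joins factors that sit on the X and Y boxes of class I promoters. Nearly all nucleated cells of the bone marrow carry class I. *Mpo*, the gene of the granule enzyme myeloperoxidase, is high in early neutrophil precursors and lost as they mature, and is used below to divide the cells into bands.

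In the GENCODE M21 annotation of mouse build GRCm38, 7 of the 10 genes lie on chromosome 17, in and beside the major histocompatibility complex. They are *Tapbp* (33915899 to 33929292), *H2-K1* (33996017 to 34000347), *Psmb9* (34181987 to 34187764), *Tap1* (34187553 to 34197225), *Psmb8* (34197721 to 34201454), *Tap2* (34203527 to 34216321) and *H2-D1* (35262730 to 35267499). *B2m* lies on chromosome 2 (122147686 to 122153083), and *Nlrc5* (94434356 to 94527272) and *Psmb10* (105935735 to 105938444) lie on chromosome 8. *Psmb9* and *Tap1* run in opposite directions, and their RefSeq start sites at 34187330 and 34187556 leave 225 bases between them. The gene models overlap at their starts on opposite strands. *Tap2* and *Psmb8* overlap *Gm20496*, *B2m* overlaps *Patl2*, *Psmb10* overlaps *Gm16156* and *Nlrc5* overlaps *9330175E14Rik*, all on the other strand, and *Tapbp* overlaps *Zbtb22* on its own strand. The heavy chain genes are close relatives of each other and of the H2-Q and H2-T genes, so reads shared between these copies may have been lost or given to another copy, and levels of single class I heavy chain genes are uncertain to that extent.

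RefSeq promoter sequences (GRCm38.p6, the 250 bases before the start site) were at hand for 8 of the 10 genes, without *Tap2* and *Nlrc5*. The stretches of *B2m* and *H2-K1* are shown because the light chain and a heavy chain of the same molecule were both lower outside the young library. The *B2m* sequence is chr2:122147437-122147685 on the plus strand and the *H2-K1* sequence is chr17:34000348-34000583 on the minus strand, each ended where the annotated gene begins. Capitals mark a site of interferon regulatory factors (GAAA, any 2 bases, GAAA), a palindromic κB site (GGGGA, T and TCCCC in a row), TTTCACTTC (the interferon response element of class I genes), TGACG (a core of the X box) and CCAAT (the Y box), each on either strand.
B2m: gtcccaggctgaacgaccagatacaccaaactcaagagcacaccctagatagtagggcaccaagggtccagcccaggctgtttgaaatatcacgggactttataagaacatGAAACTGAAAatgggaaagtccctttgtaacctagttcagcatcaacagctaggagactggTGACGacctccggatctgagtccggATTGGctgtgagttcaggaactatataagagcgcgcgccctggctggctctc
H2-K1: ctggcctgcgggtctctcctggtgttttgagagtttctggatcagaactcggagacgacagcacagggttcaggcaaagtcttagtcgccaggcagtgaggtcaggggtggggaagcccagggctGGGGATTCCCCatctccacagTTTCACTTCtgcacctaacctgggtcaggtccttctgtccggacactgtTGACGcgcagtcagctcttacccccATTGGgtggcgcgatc

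*B2m*, *H2-K1* and *H2-D1* shared 1 arrangement, TGACG followed after 20 bases by ATTGG, the reverse complement of CCAAT. It was found in 30 of 32851 RefSeq promoters (0.0913%). The arrangement was chosen after the sequences were seen, as were the other motifs, so their shares of promoters are descriptions only. The arrangement began 78 bases before the start site of *B2m*, 55 bases before that of *H2-K1* and 101 bases before that of *H2-D1*. A second RefSeq start site of *H2-K1* had its TGACG 41 bases before it. The *H2-D1* copy is chr17:35262993-35263022 on the plus strand, inside the annotated gene, which begins before the RefSeq start site. Capitals mark both boxes.
B2m: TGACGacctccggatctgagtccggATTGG
H2-K1: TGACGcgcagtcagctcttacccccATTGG
H2-D1: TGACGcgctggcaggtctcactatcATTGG
Between *H2-K1* and *H2-D1* 23 of these 30 bases were identical, and between *B2m* and *H2-K1* 13 of 30. Both heavy chain genes also held the κB site and TTTCACTTC, 10 bases apart. The *H2-K1* copy is chr17:34000429-34000458 on the minus strand and the *H2-D1* copy chr17:35262923-35262952 on the plus strand, with 29 of 30 bases identical.
H2-K1: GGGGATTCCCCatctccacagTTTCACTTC
H2-D1: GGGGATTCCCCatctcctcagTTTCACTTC
The κB palindrome was found in 10 of the 32851 promoters (0.0304%) and TTTCACTTC in 132 (0.402%). Over the best local alignment of the full 250 bases, 172 of 191 bases (90.1%) of the *H2-K1* and *H2-D1* promoters were identical. The interferon regulatory factor site, present in 2.98% of promoters, was found in *B2m* among the 8 genes. CCAAT was found in 6 of the 8 genes and in 33.8% of promoters, and TGACG in 5 of the 8 and in 17.8%. The shared region of *Psmb9* and *Tap1* held 1 CCAAT and 1 TGACG, but not in this arrangement. These matches describe letters and were not tested as binding sites.

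The light chain and both heavy chains were lower in the old and in the control library than in the young library. *B2m* had 2433 CPM in the young library (95% interval 2422 to 2445), 1036 CPM (1029 to 1042) in the control library and 959 CPM (954 to 965) in the old library. It was thus 2.35 times lower in control and 2.54 times lower in old than in young, while control and old differed by 1.08 times. *H2-K1* had 407 CPM in young, 139 CPM in control and 139 CPM in old. The log2 ratio of *H2-K1* was -1.55 (-1.58 to -1.52) for old over young and -0.0020 (-0.035 to 0.031) for old over control. *H2-D1* had 1389 CPM in young, 690 CPM in control and 900 CPM in old. Here the old library lay between the others, with log2 ratios of -0.62 (-0.64 to -0.61) against young and 0.38 (0.37 to 0.40) against control. The heavy chains therefore did not keep a fixed proportion. There were 3.41 *H2-D1* UMIs per *H2-K1* UMI (3.37 to 3.46) in the young library, 4.96 (4.87 to 5.05) in the control library and 6.48 (6.37 to 6.59) in the old library.

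**Figure D1:**
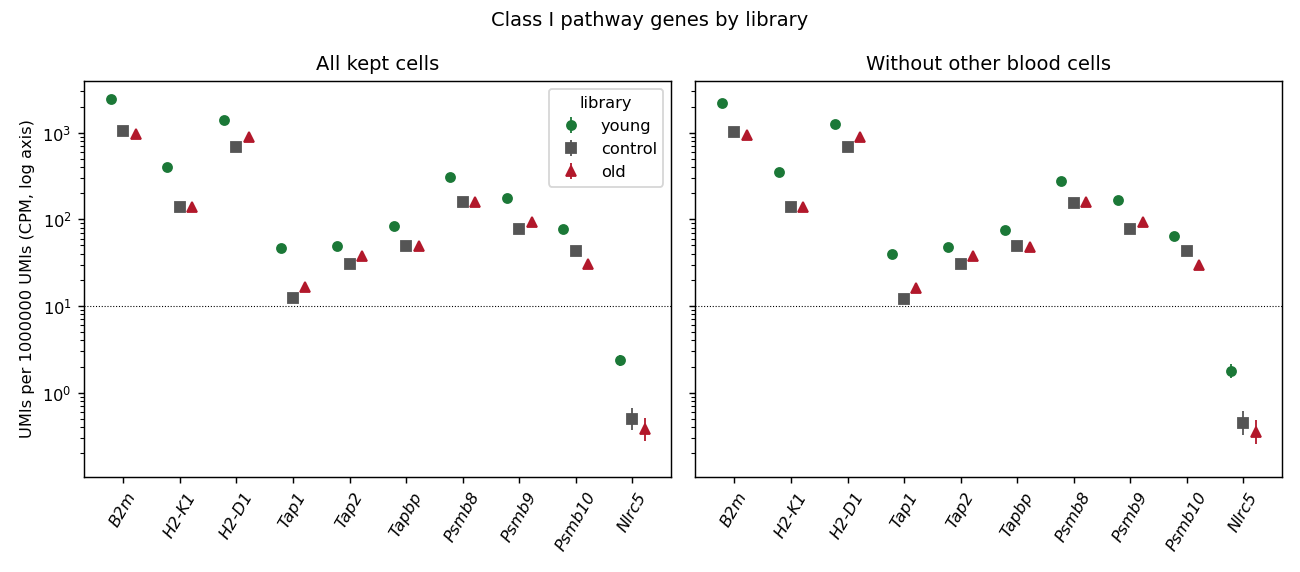
Level of each of the 10 genes as UMIs per 1000000 UMIs (log axis) in the young (circles), control (squares) and old (triangles) library, for all kept cells and without other blood cells, with 95% Poisson intervals that are mostly smaller than the symbols. The young library is highest for each gene in both panels, and the dotted line marks 10 CPM.

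Among the genes of peptide transport and loading, the subunits of the transporter differed in size of change. *Tap1* had 46.5 CPM (44.97 to 48.1) in young, 12.3 CPM (11.7 to 13.1) in control and 16.4 CPM (15.7 to 17.1) in old, 3.77 times lower in control and 2.84 times lower in old than in young. *Tap2* had 49.1 CPM (47.5 to 50.7) in young, 30.6 CPM (29.5 to 31.7) in control and 37.7 CPM (36.6 to 38.8) in old. *Tap2* was 1.61 times lower in control, past the limit, and 1.30 times lower in old, short of it. Both subunits were higher in old than in control, by log2 0.41 (0.30 to 0.51) for *Tap1* and 0.30 (0.24 to 0.37) for *Tap2*. *Tapbp* had 83.9 CPM in young, 49.5 CPM in control and 48.6 CPM in old, so that it differed between young and the other libraries but was within its counting interval between control and old (log2 -0.024, -0.080 to 0.031).

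The immunoproteasome subunits were lower in control and old, while the subunits they replace kept a similar level. *Psmb8* had 310.1 CPM in young, 157 CPM in control and 159 CPM in old. *Psmb9* had 178 CPM in young, 77.8 CPM in control and 93.6 CPM in old. *Psmb10* had 76.4 CPM (74.4 to 78.4) in young, 43.2 CPM (41.9 to 44.6) in control and 30.2 CPM (29.3 to 31.2) in old. *Psmb10* was lower in old than in control beyond counting error, at log2 -0.52 (-0.58 to -0.45), short of the limit. The constitutive counterparts *Psmb5*, *Psmb6* and *Psmb7* had log2 ratios between 0.021 and 0.050 for old over young and between 0.051 and 0.16 for control over young, with 0 of 3 past the limit. In the young library 1.60 *Psmb8* UMIs (1.57 to 1.64) were counted per *Psmb5* UMI, against 0.727 (0.712 to 0.742) in control and 0.799 (0.784 to 0.814) in old. For *Psmb9* per *Psmb6* these ratios were 0.776, 0.310 and 0.393, and for *Psmb10* per *Psmb7* 0.562, 0.307 and 0.219.

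*Nlrc5* was near the limit of detection, with 177 UMIs (2.37 CPM, 2.03 to 2.75) in young, 48 UMIs (0.500 CPM, 0.369 to 0.663) in control and 45 UMIs (0.376 CPM, 0.274 to 0.504) in old. Its ratio of young to the other libraries was the largest of the 10 genes, log2 -2.65 (-3.16 to -2.18) for old over young and -2.24 (-2.74 to -1.78) for control over young. Control and old were not distinguishable at this depth (log2 -0.41, -1.03 to 0.21). It lay below 10 CPM in each library and is left out of the counts of genes past the limit.

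Of the 9 genes with at least 10 CPM, 8 were lower in old than in young by 1.5 times or more and 0 higher, with *Tap2* the exception. Among all 5763 genes at that level, 14.7% were lower and 4.36% higher. The median log2 ratio of the 9 genes was -0.96, beside -0.15 for all 5763 genes. For control over young, 9 of 9 were lower (6.62% of 5729 genes lower, 1.59% higher), with a median of -1.01 beside -0.060. For old over control, 0 of 9 were lower and 0 higher (8.78% of 5469 genes lower, 5.36% higher), with a median of 0.024 beside -0.077. The first 2 comparisons share the young library. Young and control carry the same age label.

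Other blood cells were more frequent in the young library and carried more class I mRNA, so the comparisons were repeated without them. These cells held 9.39% of the UMIs of the young library but 11.9% (*Tap2*) to 31.6% (*Nlrc5*, exact binomial interval 24.9 to 39.0) of the UMIs of each of the 10 genes. Without them 7 of 9 genes were lower in old than in young (10.1% of 5580 genes lower), and *H2-D1* fell short of the limit beside *Tap2*, at 1265 CPM in young and 897 CPM in old (log2 -0.50, -0.51 to -0.48). For control over young 9 of 9 remained lower (3.61% of 5547 genes lower), with *Psmb10* (log2 -0.59, -0.65 to -0.53) and *Tapbp* (-0.60, -0.66 to -0.54) nearest to the limit. *B2m* was 2.35 times and *H2-K1* 2.58 times lower in old than in young in these cells. Markers of other cells were still counted in the remaining cells. In young, control and old they summed to 24.5, 7.53 and 13.9 CPM for 7 monocyte markers and to 43.6, 12.01 and 9.57 CPM for 7 dendritic cell markers. For 8 erythroid markers the sums were 154, 35.3 and 7.28 CPM, and each of these lists was highest in young. The 7 NK/T markers summed to 756, 635 and 431 CPM, against 754, 633 and 429 CPM in all kept cells. That sum did not fall when NK/T-like cells were set aside, so it is not read as a measure of remaining NK/T cells. The 3 plasma cell markers summed to 6.89, 7.20 and 2.92 CPM. The part of such cells in the remaining differences was not tested. For old over control 0 of 9 genes passed the limit in either direction (8.75% of 5452 genes lower, 5.36% higher).

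**Figure D2:**
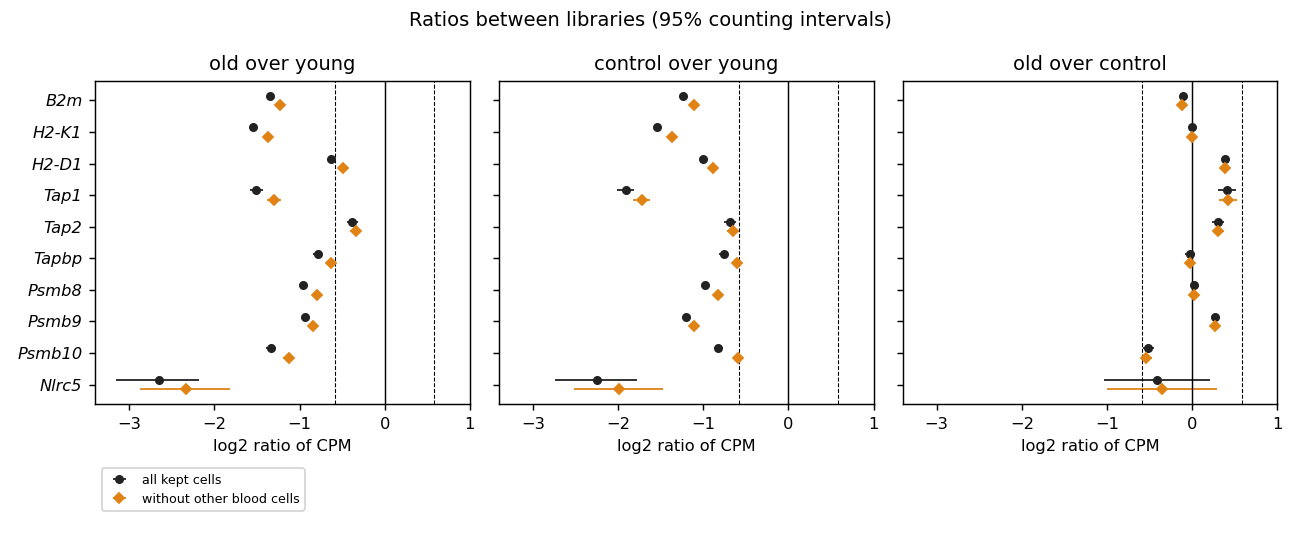
Log2 ratio of CPM for old over young, control over young and old over control, for all kept cells (circles) and without other blood cells (diamonds), with 95% intervals for counting error. Points of the first 2 panels lie left of 0 for each gene, those of the third panel lie between the dashed lines that mark 1.5 times, and *Nlrc5* has the widest intervals.

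The other genes of the pathway were counted by lists. Of 8 further class I heavy chain genes, 6 had at least 10 CPM in young or old and 6 of 6 were lower in old (median log2 -2.04; 14.7% of all genes lower) and 6 of 6 in control (median -1.99; 6.62% lower). Without other blood cells 5 were measured, and 5 of 5 were lower in old (10.1% of all genes) and in control (3.61%). Only 3 of the 8 genes (*H2-Q4*, *H2-T22* and *H2-T23*) had at least 10 CPM in control or old. The other counted genes, among them *H2-Q6* and *H2-Q7*, passed this minimum only through the young library. Part of these counts was thus set by the filter. The 2 lowest ratios of old over young were those of *H2-Q6* (17.2 CPM in young, 0.769 CPM in old, log2 -4.48) and *H2-Q7* (50.3 and 4.51 CPM, log2 -3.48), and the 2 highest those of *H2-T22* (37.9 and 11.5 CPM, log2 -1.72) and *H2-T23* (95.3 and 41.4 CPM, log2 -1.20), which encodes the Qa-1 ligand of natural killer cell receptors. Of 7 measured genes of peptide cleavage and loading, 3 were lower in old than in young (14.7% of all genes) and 2 lower in control (6.62%). Without other blood cells 2 of 7 were lower in old (10.1%) and 0 of 7 in control (3.61%). The activator subunits *Psme1* (200 CPM in young, 125 in control, 120 in old) and *Psme2* (241, 153 and 143 CPM) passed the limit in both comparisons, but without other blood cells only for old over young (log2 -0.60 and -0.63, against -0.55 and -0.52 for control over young). The oxidoreductase *Pdia3* (307 CPM in young, 276 in old, log2 -0.15) and the assembly factor *Pomp* (249 and 218 CPM, log2 -0.19) did not. *Calr*, the chaperone calreticulin, was the third gene lower in old (log2 -0.60, and -0.53 without other blood cells, short of the limit), with 247 CPM in young, 284 CPM in control and 163 CPM in old, so that it was lower in old than in control as well (log2 -0.80).

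Among the regulators, *Irf8*, a factor of monocytes and dendritic cells, had 40.5 CPM in young, 3.00 CPM in control and 1.61 CPM in old, and without other blood cells 4.98, 0.830 and 0.346 CPM. *Irf1* (17.5 CPM in young, 9.98 in control, 12.4 in old) was lower in control (log2 -0.81) and short of the limit in old (-0.49), and *Irf2* (log2 -0.26 for old over young, -0.49 for control over young) passed it in neither. Of 16 measured genes of the type I interferon list, 16 were lower in old (14.7% of all genes) and 16 in control (6.62%). Without other blood cells the counts were also 16 of 16 in old (10.1% of all genes) and in control (3.61%). In all kept cells the ratios of old over young went from log2 -6.36 (*Ifi27l2a*, 756 CPM in young and 9.22 CPM in old) and -6.02 (*Ifit3*) to -1.78 (*Cmpk2*) and -1.57 (*Ddx58*). Of 5 measured genes of an interferon gamma list, 4 were lower in old (14.7%) and 5 in control (6.62%). Without other blood cells the counts were again 4 in old (10.1%) and 5 in control (3.61%). The lowest ratios of old over young in all kept cells were those of *Irgm1* (-3.06) and *Gbp7* (-2.88). Only 3 genes of the type I list and 2 of the interferon gamma list had at least 10 CPM in control or old. The other counted genes passed this minimum only through the young library, where they were high. The counts of lower genes in these 2 lists were thus largely set by the filter. *Irf1* stands in both the list of regulators and that of interferon gamma targets. The part that interferon signalling has in the levels of the 10 genes was not tested.

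Within each library, levels were followed over 5 bands of *Mpo* UMIs per 10000 UMIs of a cell, from 60 and over (1092 young, 1064 control and 665 old cells) to under 2 (1223, 1408 and 2324 cells), without other blood cells. Before the UMI limits, median *Mpo* over all libraries was 3.26 in NK/T-like and 2.60 in B-progenitor-like cells. A group led by *Mmp8*, a marker of maturing neutrophils, had 3.02. These values lie in the band of 2 to 5, so the 2 lowest bands are not read as ordered stages. *H2-K1*, *Psmb8* and *Psmb10* were highest where *Mpo* was highest, in each library. *Psmb10* went from 120 CPM at high *Mpo* to 43.1 CPM at low *Mpo* in young, from 95.05 to 24.4 CPM in control and from 84.8 to 16.2 CPM in old, a 2.79-fold, 3.90-fold and 5.25-fold difference. *H2-K1* went from 485 to 302 CPM in young, from 247 to 104 CPM in control and from 280.4 to 96.6 CPM in old. *Psmb8* went from 387 to 233 CPM, from 269.8 to 117 CPM and from 283 to 119.7 CPM. *Tapbp* passed the limit in the control library (62.2 to 40.7 CPM, 1.53-fold) and not in the young (1.44-fold) or old library (1.26-fold), and its direction turned with the total, as given below.

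*B2m*, *H2-D1*, *Tap1*, *Tap2* and *Psmb9* changed little with *Mpo* per total UMIs, in a direction that turned with the total (below), with a highest band at most 1.31 times the lowest in any library. *B2m* stayed between 2053 and 2464 CPM in young, between 992 and 1114 CPM in control and between 849 and 1082 CPM in old, so that the lowest band of the young library was above the highest band of the others. The bands of *H2-D1* did not overlap between any 2 libraries, with 1177 to 1367 CPM in young, 870 to 959 CPM in old and 638 to 763 CPM in control. The same order, young, then old, then control, held without overlap of the bands for *Tap1* (36.7 to 44.1, 15.2 to 18.3 and 10.999 to 13.9 CPM) and *Tap2* (44.7 to 52.8, 36.5 to 39.4 and 28.6 to 34.5 CPM). *Psmb9* had 165 to 179 CPM in young, 83.3 to 109 CPM in old and 70.6 to 84.2 CPM in control, where old and control overlapped. *Nlrc5* had 5 to 36 UMIs per band, too few for an order. The share of all genes whose bands did not overlap between libraries was not counted. Bands without overlap are therefore not read as particular to these genes.

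**Figure D3:**
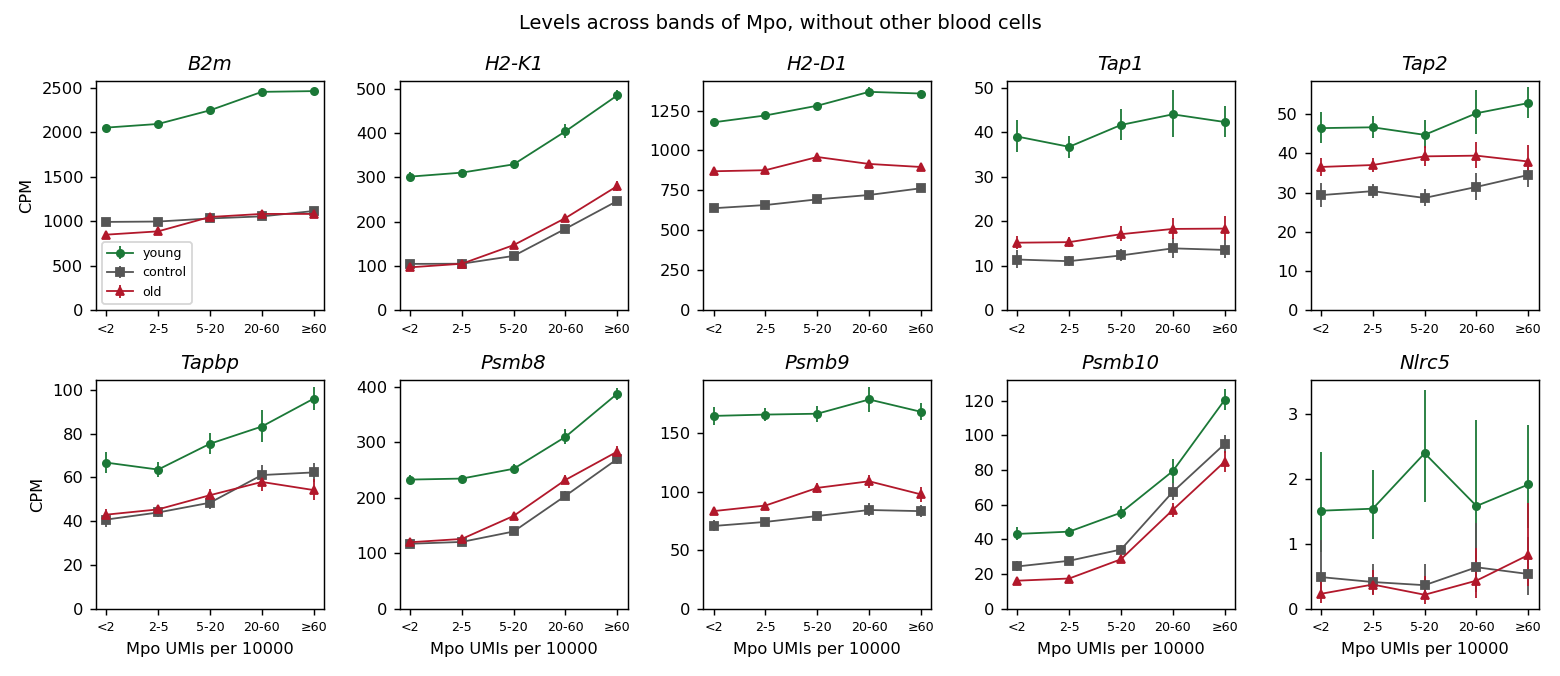
Level (CPM, axis from 0) of each gene over 5 bands of *Mpo* UMIs per 10000 UMIs of a cell in the young, control and old library, without other blood cells, with 95% Poisson intervals. *H2-K1*, *Psmb8* and *Psmb10* climb to the right in each library, while *B2m*, *H2-D1*, *Tap1*, *Tap2* and *Psmb9* run nearly level, with the young library on top.

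These differences depend on the total they are divided by. In the band under 2, 42.1% (old) to 46.1% (young) of all UMIs came from 11 granule and S100 genes, against 13.3% to 15.1% in the band of 60 and over. Accordingly 55.0% of all genes were lower by 1.5 times or more in the lowest than in the highest band in young, 54.7% in control and 56.0% in old, with a median log2 ratio of -0.68, -0.69 and -0.72, and 3, 4 and 3 of the 9 genes with at least 10 CPM were lower. With the 11 genes left out of the total the median of all genes was -0.024, -0.036 and -0.14. *Psmb10* was then still 1.77, 2.47 and 3.51 times lower at low *Mpo* in young, control and old. *H2-K1* was 1.02, 1.499 and 1.94 times lower and *Psmb8* 1.06, 1.46 and 1.58 times lower, so that both stayed within 1.06 times in young and passed the limit in old. *B2m*, *H2-D1*, *Tap1*, *Tap2*, *Tapbp* and *Psmb9* turned to the other direction, at log2 0.045 to 0.63 higher at low *Mpo* in each library. With either total *Psmb10* lay below and these 6 genes lay above the median of all genes at low *Mpo*, in each library.

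Ratios within the same cells do not depend on the total. The ratio of *H2-D1* to *H2-K1* UMIs was 2.80 (2.72 to 2.88) in young, 3.09 (2.97 to 3.22) in control and 3.20 (3.06 to 3.34) in old cells with the most *Mpo*. In cells with the least *Mpo* it was 3.90 (3.76 to 4.05) in young, 6.12 (5.77 to 6.49) in control and 9.01 (8.64 to 9.39) in old. The 3 libraries were thus close at high *Mpo* and far apart at low *Mpo*. Without other blood cells the markers of maturing neutrophils summed to 1038 CPM in young, 605 CPM in control and 2118 CPM in old. The stage of the cells was not matched within a band, so library and stage cannot be told apart at low *Mpo*. *Psmb10* per *Psmb7* moved the other way, from 0.683, 0.514 and 0.457 at high *Mpo* to 0.378, 0.202 and 0.137 at low *Mpo* in young, control and old. *Psmb9* per *Psmb6* was higher at low *Mpo*, going from 0.520 to 0.918 in young, from 0.234 to 0.337 in control and from 0.265 to 0.425 in old. *Psmb8* per *Psmb5* went from 1.29 (1.24 to 1.35) to 1.66 (1.56 to 1.77) in young, from 0.813 to 0.697 in control and from 0.828 to 0.790 in old. The 3 immunoproteasome subunits therefore did not move together against their counterparts along the *Mpo* bands.

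**Figure D4:**
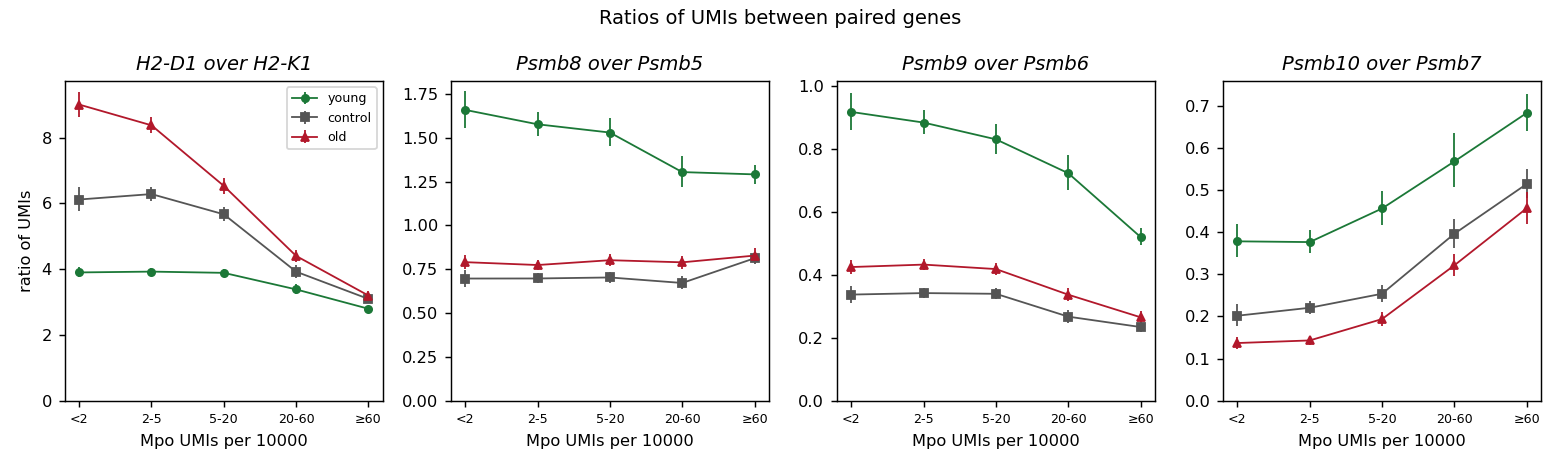
UMIs of *H2-D1* per *H2-K1* UMI and of *Psmb8*, *Psmb9* and *Psmb10* per UMI of *Psmb5*, *Psmb6* and *Psmb7*, over 5 bands of *Mpo* UMIs per 10000 UMIs, with 95% intervals (axes from 0). The *H2-D1* to *H2-K1* ratio spreads from 2.80 to 3.20 at the right to 3.90 to 9.01 at the left, and the young library is highest in each proteasome panel.

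Differences between libraries were present in each *Mpo* band, within which the stage of the cells was not matched further. From the lowest to the highest band 7, 6, 6, 4 and 6 of the 9 genes with at least 10 CPM were lower in old than in young by 1.5 times or more, where 10.9%, 8.93%, 7.37%, 8.71% and 9.51% of all genes were. *B2m*, *H2-K1*, *Tap1* and *Psmb9* were lower in every band. For *Tap1* the log2 ratio stayed between -1.36 and -1.21, and for *B2m* between -1.27 and -1.10. For *H2-K1* it went from -1.64 (-1.72 to -1.57) at low *Mpo* to -0.79 at high *Mpo*, and for *Psmb10* from -1.42 to -0.51. For control over young 9, 8, 9, 7 and 7 genes were lower (3.90%, 3.47%, 4.09%, 6.37% and 7.25% of all genes), 6 of them in every band. The share of all genes lower in every band was not counted for either comparison. For old over control *Psmb10* had log2 ratios of -0.59 (-0.81 to -0.38) and -0.67 (-0.80 to -0.53) in the 2 lowest bands and of -0.26 to -0.16 in the others. In these 2 bands it passed the limit, as 1 of the 9 genes. The share of all genes past the limit is not given for old over control within bands, so this is not read as particular to *Psmb10*. *H2-D1* had 0.23 to 0.47 and *Tap1* 0.39 to 0.47, higher in old in each band, and the intervals of *Nlrc5* included 0 in each band.

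Other blood cell groups were compared with the remaining cells of the same library, where a group had at least 50 cells. The groups were formed without the 10 genes, *Mpo* and the interferon lists and named from other markers. Summed over the 10 genes, the remaining cells of the young library had 4514 CPM. The 53 dendritic-like cells had 13885 CPM, 3.08 times as much (2.98 to 3.18), and 425 monocyte-like cells 10563 CPM, 2.34 times (2.32 to 2.36). The 63 NK/T-like cells had 10301 CPM (2.28 times), 103 B-progenitor-like cells 6749 CPM (1.495 times) and 76 erythroid-like cells 6222 CPM (1.38 times). *H2-K1* reached 1751 CPM in dendritic-like, 1426 CPM in NK/T-like and 888 CPM in monocyte-like cells, against 355 CPM in the remaining cells. *Tap2* had 47.7 CPM in the remaining cells, 48.1 CPM (35.2 to 64.1) in B-progenitor-like, 56.7 CPM in monocyte-like, 60.6 CPM (44.7 to 80.4) in erythroid-like, 81.5 CPM (59.9 to 108) in NK/T-like and 82.9 CPM (52.5 to 124) in dendritic-like cells. *Nlrc5* was highest in NK/T-like cells, at 17.3 CPM from 10 UMIs (8.32 to 31.9), with 1.79 CPM in the remaining cells.

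**Figure D5:**
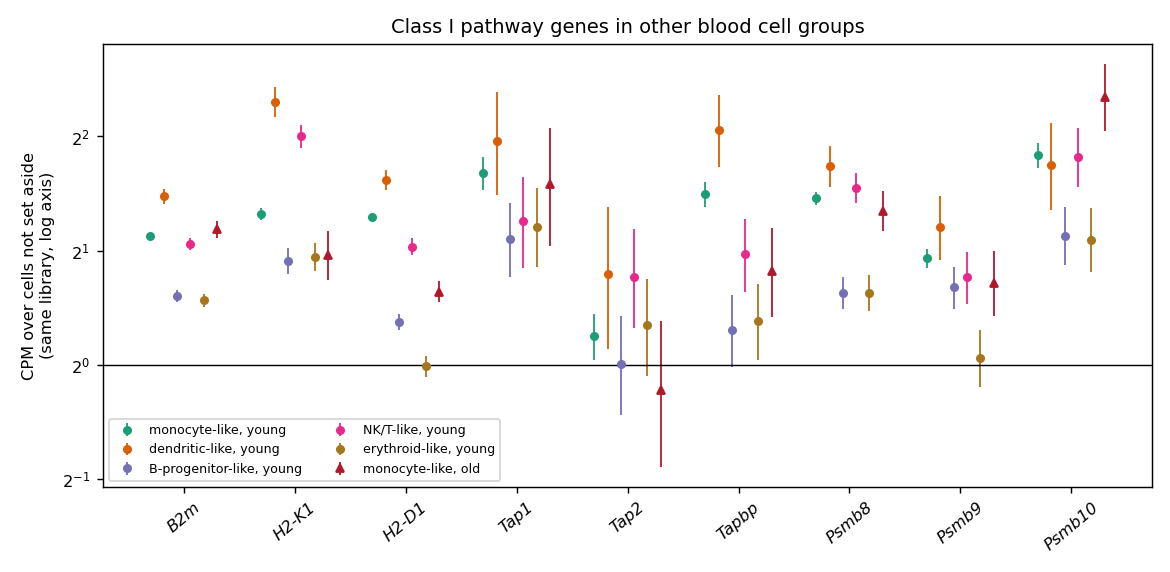
CPM of 9 genes (without *Nlrc5*) in groups of other blood cells over CPM in the cells not set aside of the same library (log axis), for 5 groups of the young library (circles) and the monocyte-like group of the old library (triangles), with 95% intervals for counting error. Most points lie above 1, and dendritic-like cells are highest for *H2-K1* and *H2-D1*. *Tap2* reaches at most 1.74 times, in dendritic-like cells, beside 1.71 times in NK/T-like cells.

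Monocyte-like cells were the 1 such group with at least 50 cells in a further library, 66 cells in old. The 10 genes summed to 4700 CPM (4538 to 4866) there, 1.99 times (1.92 to 2.06) the 2366 CPM of the remaining old cells, and below the 10563 CPM (10460 to 10667) of the young monocyte-like cells. *B2m* had 2162 CPM in old and 4871 CPM in young monocyte-like cells, and *H2-K1* 268 and 888 CPM. *Psmb10* was 5.10 times (4.15 to 6.21) as high in monocyte-like as in remaining cells in old and 3.57 times (3.31 to 3.84) in young. The level was thus lower in the 66 old than in the young monocyte-like cells, but their make-up differed. At Leiden resolution 2, before the UMI limits, 1 monocyte-like group held 276 young and 71 old cells. A further group held 216 young and 5 old cells and also carried 5 dendritic and 4 macrophage markers. Library and kind of cell cannot be told apart in this comparison. *Nlrc5* had 0 UMIs in the old monocyte-like cells, with an exact upper bound of 5.43 CPM.

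After random thinning of every remaining cell to 3000 UMIs (0 cells were shallower), the median sum over the 10 genes was 13 UMIs in young, 6 in control and 7 in old cells. The 5th to 95th percentile was 6 to 22 in young, 2 to 12 in control and 2 to 13 in old, so that the 5th percentile of young cells equalled the median of control cells. A sum of 0 was found in 0.590% of control and 0.251% of old cells. The variance of the sum was 1.91 times its mean in young, 1.68 times in control and 1.59 times in old. *B2m* gave 6.62 UMIs per young cell, 3.04 per control cell and 2.80 per old cell. The type I interferon list was spread more unevenly, with a variance of 5.66 times its mean in young, 3.28 in control and 2.39 in old.

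Cells were then divided by their UMIs of the type I interferon list at the same depth. In the young library 549 cells (8.34%) had 0 such UMIs, 2232 had 1 to 2 and 3803 (57.8%) had 3 or more. The 10 genes summed to 4667 CPM (4564 to 4773), 4545 CPM (4494 to 4596) and 4395 CPM (4357 to 4434) in these cells, whose median *Mpo* was 5.59, 6.17 and 3.96 per 10000 UMIs. At 5000 UMIs a cell the order changed, with 4446, 4557 and 4403 CPM, so that no order is read among the young groups. In the control library the sums were 2158 CPM in 7922 cells with 0, 2135 CPM in 1627 cells with 1 to 2 and 2862 CPM (2688 to 3043) in 118 cells with 3 or more. In the old library they were 2349, 2326 and 3103 CPM (2945 to 3266), the last from 156 cells. *H2-D1* went from 893 CPM to 1579 CPM (1467 to 1697) and *B2m* from 945 to 938 CPM between the first and the last old group, so that *H2-D1* held most of that difference. In control cells *Tap1* went from 12.7 CPM to 33.9 CPM (17.5 to 59.2, 12 UMIs), but at 5000 UMIs a cell from 11.3 CPM to 16.7 CPM (9.11 to 28.0, 14 UMIs). Young cells without an interferon list UMI thus had a higher summed level than control and old cells with 3 or more, at 5000 UMIs as well (2435 CPM in control and 2789 CPM in old). These are ranges of counts and not cell types, a cell with 0 UMIs at this depth may still express such genes, and RNA free in the droplets was not measured.

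Genes with the pattern nearest to that of the 10 were sought over 15 points, 3 libraries by 5 *Mpo* bands, by Pearson correlation of log2 CPM with the centred mean of the 10 genes among 5081 genes. The 5 nearest were *Eif2ak2* (r = 0.983), *Rbbp4* (0.962), *Dnajb1* (0.957), *Sp110* (0.956) and *Tnfrsf1a* (0.955). The points of a library share its cells and depth, and the correlations are descriptions. *Eif2ak2*, the interferon-induced kinase PKR, had 29.3 CPM in young, 12.1 CPM in control and 12.5 CPM in old without other blood cells, a size of change like that of *B2m*. *Rbbp4* (133, 92.3 and 97.8 CPM), *Dnajb1* (44.6, 32.6 and 30.9 CPM) and *Tnfrsf1a* (63.1, 47.6 and 48.0 CPM) were chosen by the correlation, with smaller differences between libraries than *Eif2ak2*, and *Sp110* (55.5, 35.2 and 39.0 CPM) passed the limit for control over young (log2 -0.66). Of the 10 genes themselves, *H2-K1* was nearest to their mean (0.983) and *Psmb10* farthest from it (0.766). Each of the 10 is itself part of that mean, so these values cannot be set beside those of the 5 genes.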

How the data were processed

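CD133+ bone marrow cells were measured with the 10x Chromium 3′ v2 kit. Per the submitters' processing notes, STAR, Cell Ranger 2.1.0 and build mm10 were used. The deposited matrices hold whole UMI counts without normalization by the authors. Whether reads of the libraries were subsampled to equal depth, whether reads on the other strand were counted, and how reads of near-identical class I genes were assigned are not given in the sources used here. Of the 27998 gene identifiers, 27645 were found in GENCODE M21.

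The members, the lists and the edges of the *Mpo* bands were chosen with earlier results of these data known. Cells were kept with at least 200 genes, at most 20% mitochondrial UMIs and a UMI total between the 5th and 95th percentile, set over young and old together and over control by itself. Other blood cells were Leiden groups (resolution 1, 15 neighbours, 20 components of 2000 variable genes) with at least 3 markers of another type at 10 CPM and 10 times above the other cells. A group with 4 dendritic markers led by B and plasma cell genes was left unnamed, a choice made after its genes were seen. Doublets were not removed.

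Summed UMIs of a library or band were divided by its total (CPM). Exact 95% intervals were Poisson for levels, Clopper-Pearson for percentages and conditional binomial where 2 sums were divided. The background is the genes with at least 10 CPM in either of the compared libraries or bands. The text names the 10 members, the 2 highest and 2 lowest ratios of old over young in each list, *Calr*, which completes a count of 3, and the 5 genes nearest in pattern. A gene and a motif are not reported here. Motifs were chosen after the sequences were seen. Calculations were checked on simulated counts. Alternatives changed the cell limits, scaling, bands, thinning, resolution and limit of size. Tools were scanpy 1.11.5, leidenalg 0.10.2, Biopython 1.88, scipy 1.17.1, matplotlib 3.10.9, pandas 2.3.3 and numpy 2.4.6 under Python 3.11.15.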

Additional observations from a re-analysis of the deposited data

How the results depend on the processing

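No paired analysis was possible because each group is 1 library and no result comes from a test, and no replicate could be left out. Over 8 settings of cells, scaling and weights, the log2 ratio of each of the 10 genes kept its direction in 80 of 80 values for old over young and in 80 of 80 for control over young, and its side of the 1.5 times limit in 75 and 79. The exceptions for old over young were *H2-D1* without other blood cells (-0.50), scaled by the median of ratios (-0.48), as UMIs per cell (-0.34) and with the 5 *Mpo* bands weighted equally (-0.50), and *Tapbp* as UMIs per cell (-0.50). That for control over young was *Psmb10* with the bands weighted equally (-0.46). For old over control it kept its direction in 72 of 80 values. The median of the 9 genes ranged from -0.99 to -0.67 for old over young, from -1.05 to -0.88 for control over young and from -0.013 to 0.35 for old over control. With a limit of 2 times, 4 genes instead of 8 were lower in old and 5 instead of 9 in control than in young. With no scaling for depth, as UMIs per cell, 4 genes instead of 0 were higher in old than in control, where the old library had more UMIs per cell. The share of all genes past the limit was not counted for either of these settings. Of the genes lower in the lowest *Mpo* band, 1 instead of 3 was counted in young with other blood cells included or with 11 granule and S100 genes left out of the total, and 1 instead of 4 in control with the latter. The share of all genes lower in that band was not counted for these settings. In the main setting it was 55.0% in young and 54.7% in control. Thinning to 5000 UMIs, which left out 600 young, 1073 control and 279 old cells, gave a ratio of young to control of 2.04 instead of 2.07 per cell, and of young cells with 3 or more interferon list UMIs to those with 0 of 0.990 instead of 0.942. The share of all genes lower in old than in young was 14.7% at 10 CPM, 7.47% at 50 CPM and 38.3% with no minimum, and that of control over young 6.62%, 4.73% and 27.8%. Depth limits *Nlrc5* and the groups with few cells.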
